A study of Mus musculus with 9 samples.

Results

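The carriers that move bile acids, drugs and other organic ions across the hepatocyte membranes were examined in mouse liver after acetaminophen injury. They were taken by name from the gene table: the organic anion carriers of the Slco family, the organic ion carriers of the Slc22a family, the ABC transporters of subfamilies B and C, and the genes Slc10a1, Slc51a, Slc51b, Slc47a1 and Abcg2. Of 28956 rows in the table, 56 with such a name are described here, and 45 of those had 10 or more raw counts in at least 3 libraries. The model fitted to all genes tested 44 of the 45. Of the kept genes, 19 carriers with a well-known place in the hepatocyte were put in 3 classes by textbook location, with 6 in sinusoidal uptake, 7 in canalicular export and 6 in basolateral export.

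The study had 9 RNA-seq libraries in 3 groups of 3. All mice were C57BL6J, 8 weeks old, and received 300 mg/kg of APAP (acetaminophen, a pain reliever toxic to hepatocytes in overdose) into the peritoneum. The APAP group received no cells, while the APAP_MSC and APAP_HDF groups received 500000 MSC or HDF cells intravenously 90 min after APAP, and the title of the series gives 24 h as the time. The labels do not spell out MSC and HDF, usual abbreviations of mesenchymal stromal cell and dermal fibroblast of human origin. Untreated liver is not part of the comparison, so every value describes injured liver. The labels name hepatocytes, but the material was a piece of whole liver, so a change in the number of cells of a type and a change in RNA per cell cannot be told apart. Whether the libraries stem from different animals is not stated, so a p-value here reflects only how far these samples spread, which may be technical. Libraries are numbered 1 to 3 within a group in column order.

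Hepatocytes face blood on their sinusoidal side and bile on their canalicular side. Bile acids return from the gut in portal blood, are taken up by the sodium-coupled carrier Slc10a1 and by sodium-independent Slco carriers, and are pumped into bile by the canalicular bile salt pump Abcb11. Conjugated drugs, the glucuronide and sulfate of acetaminophen among them, leave the hepatocyte into bile through Abcc2 and Abcg2 or back into blood through basolateral pumps such as Abcc3 and Abcc4. In cholestasis and toxic injury the textbook pattern is lower uptake and higher basolateral export, which limits what the hepatocyte accumulates.

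Library totals lay between 53267231 and 63175573 counts, and 3 counts, the most that a count of 0 allows for counting error alone, corresponded to 0.0453 to 0.0567 CPM (a count relative to its library's total, brought to the usual common sum, with totals corrected for composition by TMM factors). The hepatocyte markers summed to 101621 to 119728 CPM in APAP, 104443 to 120577 CPM in APAP_MSC and 97970 to 127983 CPM in APAP_HDF, and 0 of 7 tested passed in APAP_MSC against APAP. Markers of other cell types were lower in APAP_MSC than in APAP for 5 of 8 monocyte and macrophage genes (summed 45.3 to 64.6 against 100.4 to 138.7 CPM, and 83.3 to 105.9 CPM in APAP_HDF), 3 of 8 sinusoidal endothelial genes, 2 of 8 stellate cell genes, 1 of 8 Kupffer cell genes and 3 of 5 tested neutrophil genes. Against APAP_HDF, 1 of the 7 hepatocyte genes was higher in APAP_MSC, and 2 of 8 monocyte and macrophage and 2 of 8 sinusoidal endothelial genes were lower. Of 7 tested cholangiocyte genes, 0 passed in APAP_MSC against APAP and 4 were higher in APAP_MSC than in APAP_HDF. Over all tested genes 2.83% were higher and 3.54% lower in APAP_MSC against APAP, and 4.90% and 3.99% against APAP_HDF. Of the lymphoid lists, 0 of 5 T and NK cell and 0 of 3 B cell genes passed, 1 of 5 erythroid genes was higher in APAP_MSC against each other group, and the 2 matched renal tubule genes, a check for another organ rich in these carriers, summed to at most 1.17 CPM. No marker of these lists was at 0 in all libraries. APAP_HDF library 1 had the lowest level of the 9 for Slc10a1, Slco1b2, Slco1a1 and Slco1a4, and results that change without it are given both ways.

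In APAP_MSC, 8 of the 44 tested members were higher than in APAP and 4 were lower at an edgeR adjusted p under 0.05, while over all 17582 tested genes 2.83% were higher and 3.54% lower. The higher members were the uptake carriers Slc22a7 and Slco1a1, the bile salt pump Abcb11, the basolateral Abcc6, the mitochondrial Abcb10, and Slc22a18, Slc22a28 and Slc22a30. The lower members were Abcb1b, Abcc1, Abcc9 and Slco2a1. Groups without overlap between libraries were found for 16 members in the higher direction, against 13.7% of all genes, and for 9 in the lower direction, against 14.7%. The median log2 fold change was 0.26 over the members and -0.01 over all tested genes.

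In APAP_HDF, 0 of the 44 members passed against APAP in either direction, and the share over all genes was 0.00%. Without adjustment for the number of genes, p was under 0.05 for 1 member in the higher direction, against 3.65% of all genes, and for 9 in the lower direction, against 5.14%. Groups did not overlap for 0 members in the higher direction, against 5.66% of all genes, and for 5 in the lower direction, against 6.08%. DESeq2 called 1 member, Abcb1a, lower in this comparison, and limma-voom called 0. Between the groups that received cells, 9 members were higher in APAP_MSC than in APAP_HDF, against 4.90% of all genes, and 3 were lower, against 3.99%. Groups did not overlap there for 19 members in the higher direction, against 16.8% of all genes, and for 4 in the lower direction, against 16.4%. The comparisons share libraries, so they are given side by side and no overlap between them is read.

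**Figure D1:**
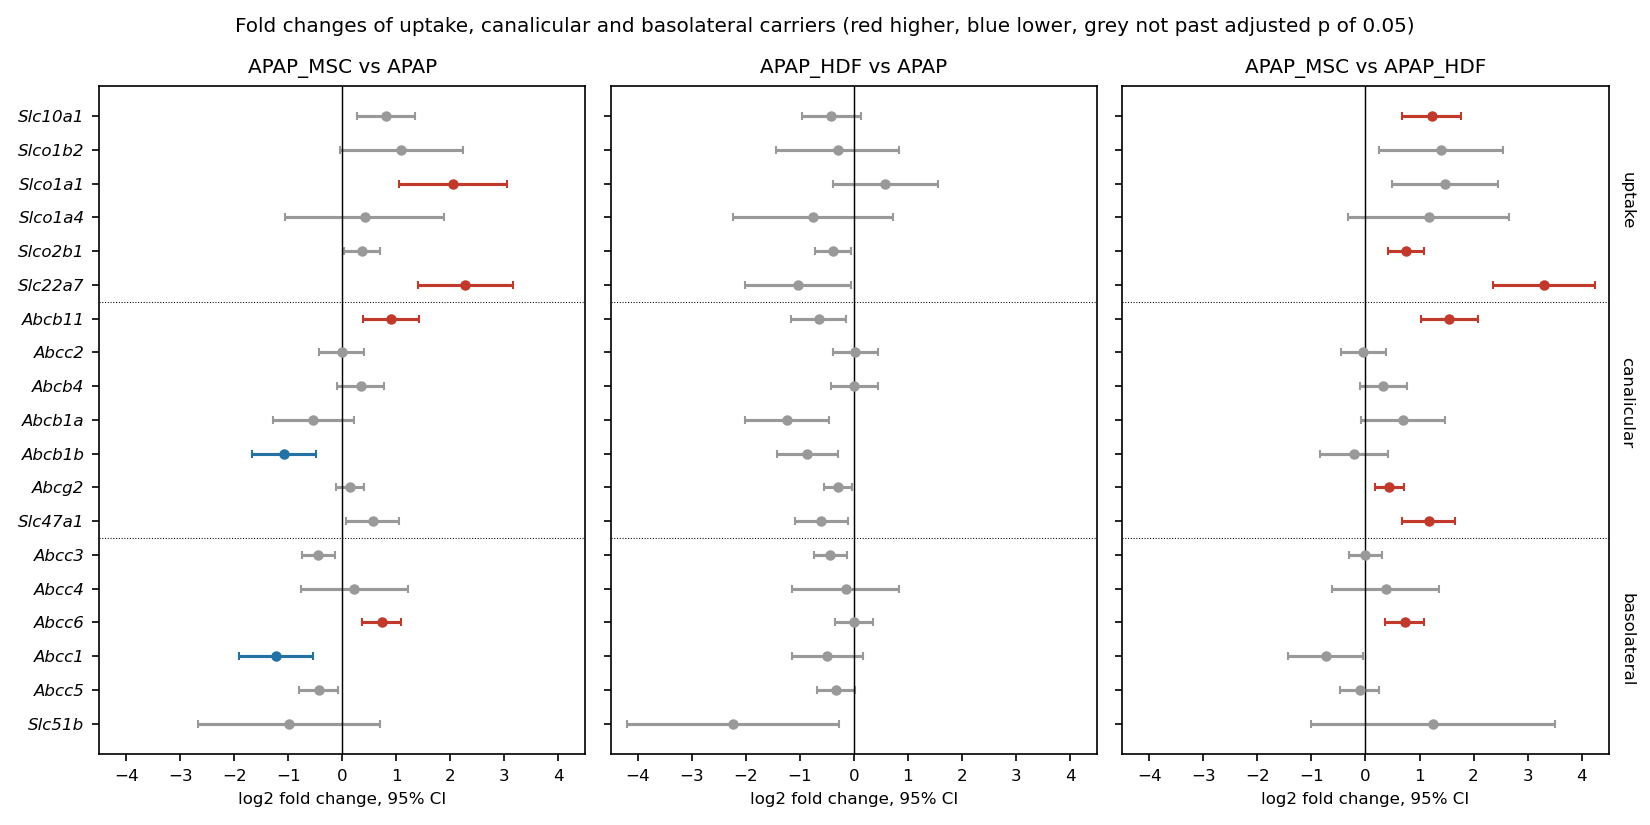
Log2 fold changes (points) from the edgeR fit, with 95% confidence intervals (bars) approximated from its F statistics, for the 19 carriers of the 3 classes, in 3 comparisons. Red marks higher and blue lower at an adjusted p under 0.05 and grey marks neither. In APAP_MSC against APAP all 6 uptake carriers lie right of 0, from 0.37 to 2.28, and in APAP_HDF against APAP all points are grey.

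Slc22a7, a carrier of organic anions and nucleotides, was higher in APAP_MSC than in both other groups. It stood at 3.08, 3.98 and 2.01 CPM in APAP, 23.8, 9.05 and 10.7 CPM in APAP_MSC and 1.27, 1.2 and 1.94 CPM in APAP_HDF. The 3 groups did not overlap, and APAP_MSC library 1 was more than 10 CPM above the other 2 of its group. The log2 fold change of APAP_MSC was 2.28 ± 0.39 (SE) against APAP (adjusted p = 0.0161) and 3.31 ± 0.42 against APAP_HDF (adjusted p = 0.00291). Without APAP_MSC library 1 the first was 1.72 and still passed, and without APAP library 1 it no longer passed (2.31, adjusted p = 0.0510).

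Slco1a1, a male-predominant mouse carrier of bile acids and steroid sulfates, was at 24.2, 32.0 and 43.3 CPM in APAP, 173, 114 and 125 CPM in APAP_MSC and 21, 51.9 and 76.6 CPM in APAP_HDF. The APAP_MSC libraries were above all others. The difference from APAP was 4.15-fold (log2 2.05 ± 0.44, adjusted p = 0.0340), and that from APAP_HDF did not pass (1.47 ± 0.43, adjusted p = 0.0712). The first call was lost on leaving out any APAP or APAP_MSC library or APAP_HDF library 2 (adjusted p 0.0570 to 0.103, log2 fold change never under 1.85), and the second passed without APAP_HDF library 3 (1.93, adjusted p = 0.0446). With no filter the first was lost (adjusted p = 0.0940), and with DESeq2 the second passed (adjusted p = 0.0133).

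Slc10a1, the main uptake carrier of conjugated bile acids, stood at 165, 182 and 153 CPM in APAP, 241, 319 and 315 CPM in APAP_MSC and 72.8, 145 and 156 CPM in APAP_HDF. The APAP_MSC libraries were again above all others. The test passed against APAP_HDF (log2 fold change 1.23 ± 0.25, adjusted p = 0.0163) and not against APAP (0.81 ± 0.24, adjusted p = 0.0792). Without APAP_HDF library 1 both passed, at 0.96 (adjusted p = 0.00544) and 0.81 (adjusted p = 0.00401), and without APAP_MSC library 2 the difference from APAP_HDF did not (1.17, adjusted p = 0.0734). The difference from APAP also passed with DESeq2 (adjusted p = 0.0136) and in a fit of only the 2 groups (adjusted p = 0.00851), and that from APAP_HDF was lost with no filter on low counts (adjusted p = 0.0539).

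Slco1b2, the mouse counterpart of the human OATP1B carriers of statins and bilirubin, was at 192, 194 and 200 CPM in APAP, 312, 441 and 500 CPM in APAP_MSC and 46.3, 172 and 258 CPM in APAP_HDF. All APAP_MSC libraries exceeded all others, and the APAP_HDF libraries spread more than 5-fold. Neither difference passed, with log2 fold changes of 1.10 ± 0.50 against APAP (adjusted p = 0.237) and 1.40 ± 0.50 against APAP_HDF (adjusted p = 0.125). Without APAP_HDF library 1 they were 1.10 (adjusted p = 0.00835) and 0.97 (adjusted p = 0.0334), so this library decided both calls, and a fit without the APAP_HDF group also called the first (adjusted p = 0.00542). The promoter of Slco1b2 is shown because it held the motif of HNF1, a hepatocyte factor, searched as the letters GTTAATNAT on both strands. Among all 32851 mouse promoter windows of 300 bases in the RefSeq table (GRCm38.p6, 250 bases before to 50 after the start) 0.801% held it, and of 56 windows of the members 2 did, in Slco1b2 and Slc22a29. The 250 bases before the start, chr6:141629268-141629517 on the plus strand, are printed with the match in capitals, 66 bases before the start.
Slco1b2: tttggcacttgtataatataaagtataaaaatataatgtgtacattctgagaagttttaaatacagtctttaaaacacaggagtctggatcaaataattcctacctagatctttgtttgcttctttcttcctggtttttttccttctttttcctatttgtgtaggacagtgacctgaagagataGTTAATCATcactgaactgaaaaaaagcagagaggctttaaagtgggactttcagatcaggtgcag
This match describes the letters only, and binding was not measured.

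The remaining uptake carriers differed less from APAP. Slco2b1, a carrier of steroid sulfates and many drugs, was at 93.3, 81.2 and 64.5 CPM in APAP, 90.3, 111 and 107 CPM in APAP_MSC and 71.3, 55.4 and 56.1 CPM in APAP_HDF. It was higher in APAP_MSC than in APAP_HDF (log2 0.75 ± 0.15, adjusted p = 0.0131, but 0.71 with adjusted p = 0.0735 without APAP_MSC library 2), and its difference from APAP was 0.37 ± 0.15 (adjusted p = 0.167). By GENCODE, 10.3% of its exon bases overlap genes on the opposite strand, and the strand setting of the counts is not given in the sources used here. Slco1a4, a carrier known to respond to the xenobiotic receptor PXR, varied widely within groups, from 8.30 to 47.0 CPM in APAP, 22.2 to 45.7 CPM in APAP_MSC and 7.11 to 26.9 CPM in APAP_HDF. Its log2 fold change in APAP_MSC against APAP was 0.41, with a 95% confidence interval of -1.05 to 1.88, so neither a large increase nor a decrease could be seen or set aside at this spread. Against APAP_HDF the log2 fold change of Slco1a4 was 1.17 ± 0.65, which did not pass (adjusted p = 0.303).

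**Figure D2:**
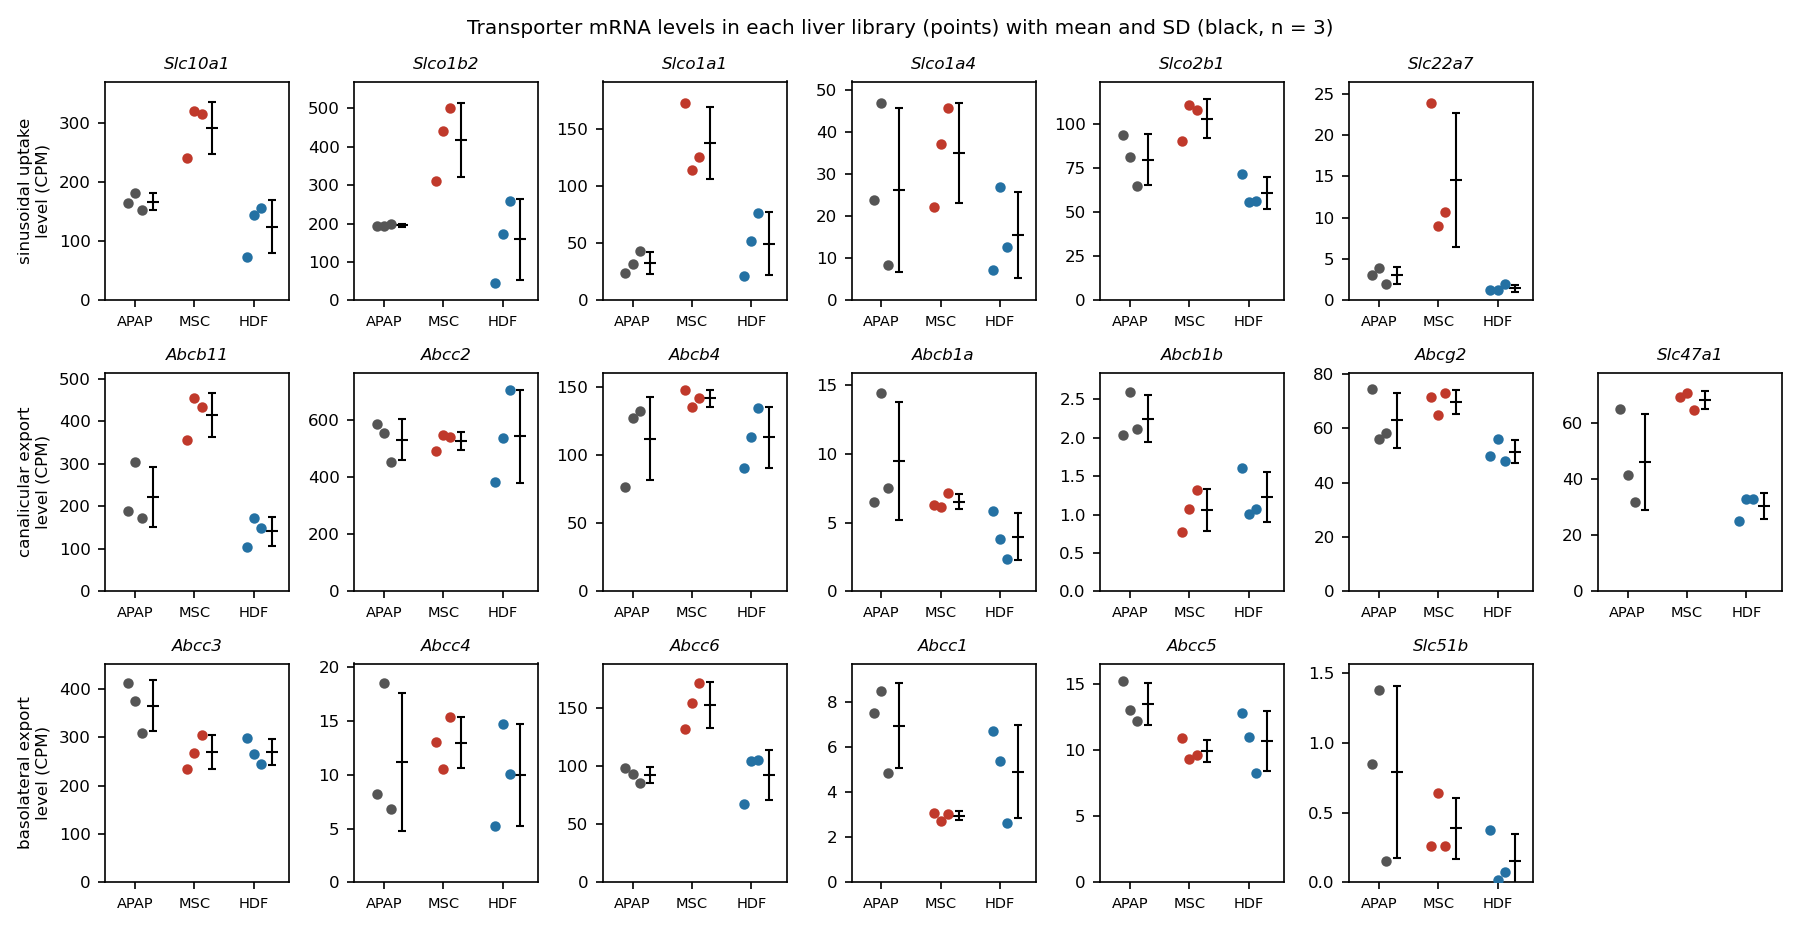
Level of each carrier in CPM (vertical axes start at 0 and differ between panels) in the 9 libraries, grouped as APAP, APAP_MSC and APAP_HDF, with the mean and SD in black (n = 3). The top row holds uptake, the middle row canalicular and the bottom row basolateral carriers. In Slc10a1 the APAP_MSC libraries sit between 241 and 319 CPM, above all others, and in Abcc2 the groups overlap.

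On the canalicular side Abcb11, the bile salt export pump, was the only one of 7 carriers that was higher in APAP_MSC than in APAP. It stood at 189, 304 and 174 CPM in APAP, 356, 455 and 434 CPM in APAP_MSC and 104, 172 and 149 CPM in APAP_HDF. The 3 groups did not overlap. APAP_MSC was 1.87-fold above APAP (log2 0.90 ± 0.23, adjusted p = 0.0481) and 2.94-fold above APAP_HDF (1.55 ± 0.24, adjusted p = 0.00515). The difference from APAP_HDF held in all 9 fits without 1 library. That from APAP was lost without APAP library 1 or 3, any APAP_MSC library, or APAP_HDF library 2 or 3 (highest adjusted p 0.167, lowest log2 fold change 0.75), and also with no filter or limma-voom (highest 0.130). Genes on the opposite strand overlap 3.01% of its exon bases.

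Slc47a1, which extrudes organic cations into bile in exchange for protons, was at 65.1, 41.5 and 32.0 CPM in APAP, 69.4, 70.9 and 65.0 CPM in APAP_MSC and 25.1, 33.1 and 33.1 CPM in APAP_HDF. It was higher in APAP_MSC than in APAP_HDF (log2 1.17 ± 0.22, adjusted p = 0.0133), and the difference from APAP did not pass (0.57 ± 0.22, adjusted p = 0.158). APAP library 1 was the highest of its group, and without it the difference from APAP passed (0.92, adjusted p = 0.0192). Without APAP_MSC library 2 or APAP_HDF library 1 the difference from APAP_HDF just missed (1.16, adjusted p = 0.0608, and 1.06, adjusted p = 0.0517). Abcg2, a pump for sulfate conjugates and urate, was at 74.6, 56.1 and 58.2 CPM in APAP, 71.4, 64.7 and 72.8 CPM in APAP_MSC and 49.8, 56.2 and 48.1 CPM in APAP_HDF. It was higher in APAP_MSC than in APAP_HDF by a small margin (log2 0.44 ± 0.12, adjusted p = 0.0459), which was lost without any 1 of the 6 libraries compared (highest adjusted p 0.133).

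Abcc2, the conjugate export pump of the canaliculus, had 586, 556 and 452 CPM in APAP, 490, 548 and 541 CPM in APAP_MSC and 382, 537 and 706 CPM in APAP_HDF. The groups overlapped and the log2 fold changes were -0.01 (95% confidence interval -0.43 to 0.41) in APAP_MSC and 0.03 (-0.39 to 0.45) in APAP_HDF against APAP. Its promoter is shown as that of a carrier linked in textbooks to the stress factor NRF2, whose antioxidant response element was searched as TGACNNNGC on both strands. The match, in capitals, lies 98 bases before the start in chr19:43782058-43782307, plus strand, GRCm38.p6.
Abcc2: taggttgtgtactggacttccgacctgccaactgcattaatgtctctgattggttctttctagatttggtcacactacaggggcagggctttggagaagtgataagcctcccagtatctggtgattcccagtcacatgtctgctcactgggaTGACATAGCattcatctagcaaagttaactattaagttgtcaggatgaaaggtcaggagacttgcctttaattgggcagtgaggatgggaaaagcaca
The element's letters occur in 12.4% of all promoter windows and in 9 of the 56 windows of members, so a match is common. The letters searched for HNF4 (CAAAGTCCA, 0.475% of all windows) and for the bile acid receptor FXR (GGTCANTGA, 0.84%) occurred in 0 of the 56. Only exact letters were counted. The Abcb11 window holds, on its opposite strand, a stretch that differs from the FXR letters only in the last base. A count of 0 therefore does not show that these promoters lack sites for FXR or HNF4. RefSeq entries were at hand for 47 of the 56 members, and Slc22a7, Slc47a1, Abcc1, Abcc3 and Abcc6 had none.

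Abcb4, the floppase that puts phospholipid into bile, was at 76.8, 127 and 132 CPM in APAP, 148, 135 and 141 CPM in APAP_MSC and 90.3, 113 and 135 CPM in APAP_HDF. Its APAP_MSC libraries were above the others by a narrow gap, and the log2 fold change of 0.34 did not pass (adjusted p = 0.342). Of the 2 mouse P-glycoproteins, which pump hydrophobic drugs, Abcb1b was lower in APAP_MSC than in APAP and Abcb1a did not pass. Abcb1b stood at 2.04, 2.59 and 2.11 CPM in APAP, 0.78, 1.08 and 1.32 CPM in APAP_MSC and 1.60, 1.01 and 1.07 CPM in APAP_HDF. It was 2.11-fold lower in APAP_MSC than in APAP (log2 -1.08 ± 0.27, adjusted p = 0.0387). That call was lost in 7 of the 9 fits without 1 library, all but those without APAP_HDF library 1 or 3 (highest adjusted p 0.147). Against APAP_HDF the log2 fold change of Abcb1b in APAP_MSC was -0.22 ± 0.29 (adjusted p = 0.679), and the groups overlapped. APAP_HDF also lay below APAP for Abcb1b, by log2 -0.86 ± 0.26, which did not pass (adjusted p = 0.502). Abcb1a was at 6.49, 14.4 and 7.53 CPM in APAP and 6.27, 6.12 and 7.12 CPM in APAP_MSC, groups that overlap (log2 -0.54, adjusted p = 0.386, and -0.10 without APAP library 2). The pair shares sequence, with 17.0% of the 50-base words (all stretches of that length) in the GENCODE transcripts of Abcb1a and 18.3% of those of Abcb1b found in other genes, so reads can be split between them.

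Basolateral export had 1 member higher and 1 lower in APAP_MSC against APAP. Abcc6, which mediates release of ATP from hepatocytes and is mutated in pseudoxanthoma elasticum, was at 98.3, 93.0 and 85.3 CPM in APAP, 132, 154 and 171 CPM in APAP_MSC and 67.1, 105 and 105 CPM in APAP_HDF. APAP_MSC lay above both other groups, by log2 0.73 ± 0.16 against APAP (adjusted p = 0.0285) and 0.72 ± 0.16 against APAP_HDF (adjusted p = 0.0220). The first was lost without any 1 of the APAP or APAP_MSC libraries (highest adjusted p 0.114) and the second without APAP_MSC library 2 or 3 (highest 0.0881). Abcc1, a glutathione conjugate pump scarce in resting hepatocytes, was at 7.52, 8.47 and 4.83 CPM in APAP, 3.08, 2.72 and 3.05 CPM in APAP_MSC and 6.69, 5.38 and 2.64 CPM in APAP_HDF. It was 2.34-fold lower in APAP_MSC than in APAP (log2 -1.23 ± 0.31, adjusted p = 0.0427), lost without APAP library 1 or 2, any APAP_MSC library, or APAP_HDF library 2 (highest adjusted p 0.171), and with no filter or limma-voom (highest 0.0745). Its difference from APAP_HDF was -0.74 ± 0.32 (adjusted p = 0.168), and passed without APAP_HDF library 3 (-1.02, adjusted p = 0.0362). The monocyte and macrophage markers given earlier were lower in the same libraries, and their part in the Abcc1 result was not tested.

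Abcc3, which exports glucuronides to blood, was the most abundant basolateral pump. It had 412, 375 and 308 CPM in APAP, 234, 267 and 305 CPM in APAP_MSC and 299, 266 and 244 CPM in APAP_HDF. Both groups with cells lay below APAP by a similar amount, log2 -0.44 ± 0.14 each, and neither passed (adjusted p = 0.0840 in APAP_MSC and 0.507 in APAP_HDF), though DESeq2 called the first (adjusted p = 0.0452). Abcc5, a cyclic nucleotide exporter, was at 15.3, 13.0 and 12.2 CPM in APAP and 10.9, 9.31 and 9.67 CPM in APAP_MSC (log2 -0.44, adjusted p = 0.139). Abcc4, a bile acid and nucleotide exporter induced in cholestasis, ranged from 6.84 to 18.5 CPM in APAP, 10.6 to 15.3 CPM in APAP_MSC and 5.24 to 14.7 CPM in APAP_HDF, with overlap throughout. The organic solute carrier works as a pair of Slc51a and Slc51b, and both were near the limit of detection. Slc51a had 57 counts over the 9 libraries and 10 or more in only 2 of them, so it was not kept. Slc51b had raw counts of 47, 74 and 10 in APAP, 14, 34 and 15 in APAP_MSC and 24, 1 and 4 in APAP_HDF, and no comparison passed (log2 -0.98 ± 0.76 in APAP_MSC against APAP, adjusted p = 0.495).

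The 3 classes were set side by side, with no test of the difference between them. The median log2 fold change of APAP_MSC against APAP was 0.95 over 6 uptake, 0.15 over 7 canalicular and -0.44 over 6 basolateral carriers, against -0.01 over all tested genes. In the uptake class 6 of 6 were positive, 2 passed and 4 had groups without overlap. Of these, Slco1a4 ranged from -0.01 to 1.14 over the alternative fits, so its positive sign did not hold in all of them. The canalicular class had 1 higher and 1 lower, with 2 without overlap in the higher and 1 in the lower direction. The basolateral class had 1 higher and 1 lower, with 1 without overlap in the higher and 3 in the lower direction. Over all genes 8599 of 17582 were positive, 2.83% were higher and 3.54% lower, and 13.7% in the higher and 14.7% in the lower direction had groups without overlap. Leaving out APAP library 2 gave a canalicular median of 0.08, leaving out APAP library 3 gave 0.09, and counting only members with a mean of 100 or more raw counts gave 0.24. Against APAP_HDF the medians of APAP_MSC were 1.31, 0.44 and 0.19, with 3, 3 and 1 members higher and 0 lower in any class, against 4.90% and 3.99% of all genes. The basolateral value was -0.00 over members with a mean of 100 or more raw counts, which leaves out Slc51b. It was also 0.10 without APAP_MSC library 3, 0.08 without APAP_HDF library 1 and 0.35 without APAP_HDF library 2.

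A level per class and library, the mean over members of log2 CPM minus each member's mean over the 9 libraries, gives each library's value and need not match the medians of fitted fold changes. For uptake the APAP libraries averaged -0.25 ± 0.30, the APAP_MSC libraries 0.95 ± 0.07 and the APAP_HDF libraries -0.70 ± 0.59 (SD, n = 3). In the same order canalicular export had 0.14 ± 0.19, 0.22 ± 0.09 and -0.37 ± 0.06, and basolateral export 0.30 ± 0.49, 0.02 ± 0.08 and -0.32 ± 0.22. Every member has the same weight here, so Slc51b, with raw counts from 1 to 74, bears on the basolateral level as much as Abcc3 does. Neither that level nor the difference that follows was computed without Slc51b. Uptake minus basolateral export was -0.68, -0.66 and -0.31 in the libraries of APAP, 0.98, 0.82 and 0.97 in those of APAP_MSC and -1.28, -0.08 and 0.24 in those of APAP_HDF. The APAP_MSC libraries were thus the highest and the closest together, and the APAP_HDF libraries were widely spread. Summed over the class, uptake carriers made up 471 to 539.6 CPM in APAP, 862 to 1104 CPM in APAP_MSC and 219.7 to 561 CPM in APAP_HDF. Basolateral carriers summed to 418 to 542, 394 to 504 and 370 to 402 CPM, ranges that overlap between APAP and APAP_MSC.

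**Figure D3:**
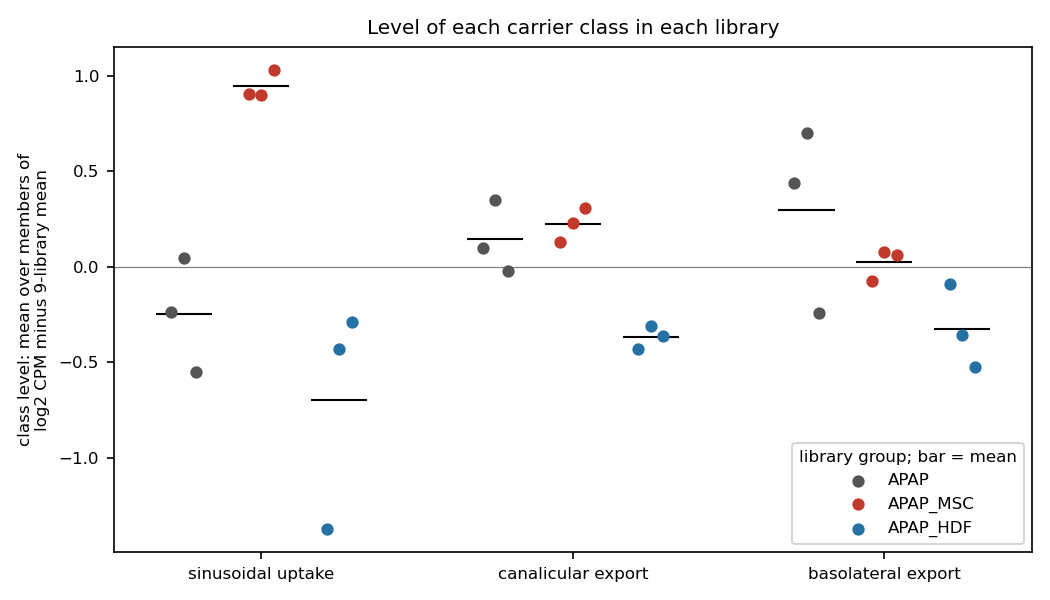
Class level in each library (points) and group mean (bars), as the mean over members of log2 CPM minus the 9-library mean of each member. For uptake the APAP_MSC libraries lie from 0.90 to 1.03 and the others at 0.04 or lower, and for basolateral export the APAP and APAP_MSC libraries overlap.

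HDF cells were the study's other injected cell type, and against APAP no carrier passed. The class medians of APAP_HDF against APAP were -0.40 for uptake, -0.60 for canalicular and -0.38 for basolateral export, against -0.00 over all tested genes. Groups did not overlap, in the lower direction, for Slc22a7, Abcb11, Abcb1a, Abcb1b and Abcc3. These were 5 of the 44 tested members, or 11.4%, against 6.08% of all genes. Their log2 fold changes were -1.04 ± 0.44, -0.65 ± 0.23, -1.24 ± 0.35, -0.86 ± 0.26 and -0.44 ± 0.14, with adjusted p between 0.495 and 0.552. Abcb1a, at 5.81, 3.80 and 2.35 CPM in APAP_HDF, passed only with DESeq2 (-1.25, adjusted p = 0.0436). Leaving out APAP library 1 gave a canalicular median of -0.27, and leaving out APAP library 2 gave -0.38. The uptake median was -0.62 without APAP_HDF library 3, and the basolateral median was -0.19 without APAP_HDF library 3.

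Outside the 3 classes, Slc22a28, a rodent organic anion carrier of the gene cluster on chromosome 19, was higher in APAP_MSC than in both other groups. It had 9.0, 8.05 and 8.56 CPM in APAP, 22.4, 22.3 and 21.7 CPM in APAP_MSC and 6.88, 12 and 13.1 CPM in APAP_HDF. APAP_MSC was 2.6-fold above APAP (log2 1.38 ± 0.20, adjusted p = 0.0056) and 2.08-fold above APAP_HDF (1.06 ± 0.19, adjusted p = 0.00916), and both calls held in each of the 9 fits without 1 library. Its neighbour Slc22a30 had 74.1, 60.1 and 64.2 CPM in APAP, 114, 125 and 122 CPM in APAP_MSC and 48.1, 88.9 and 89.0 CPM in APAP_HDF. It was higher in APAP_MSC than in APAP (log2 0.86 ± 0.20, adjusted p = 0.0327), though not without any 1 of the APAP or APAP_MSC libraries (highest adjusted p 0.126). Against APAP_HDF it missed (0.68 ± 0.20, adjusted p = 0.0598), and passed without APAP_HDF library 1 (adjusted p = 0.0431), with upper-quartile scaling and with DESeq2. Slc22a29 of the same cluster was at 0.09 to 0.13 CPM in APAP and 0.18 to 0.34 CPM in APAP_MSC (log2 1.26 ± 0.48, adjusted p = 0.147).

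These genes cannot be read as independent. Of the 50-base words of Slc22a28, 53.9% also occur in other genes, chiefly this cluster, and the share is 36.1% for Slc22a30 and 30.5% for Slc22a29, so the split of reads among them is uncertain. Their promoters are shown because the pair moved together and is close to identical there too. Over the 300-base windows, 288 of 294 aligned bases (98.0%) were identical between Slc22a28 and Slc22a30, against 81.0% between Slc22a28 and Slc22a29 and 57.1% between Slc22a28 and the unrelated Abcb11. The 250 bases before each start, chr19:8131983-8132232 and chr19:8405106-8405355 on the minus strand of GRCm38.p6, are printed with the 6 bases that differ in capitals.
Slc22a28: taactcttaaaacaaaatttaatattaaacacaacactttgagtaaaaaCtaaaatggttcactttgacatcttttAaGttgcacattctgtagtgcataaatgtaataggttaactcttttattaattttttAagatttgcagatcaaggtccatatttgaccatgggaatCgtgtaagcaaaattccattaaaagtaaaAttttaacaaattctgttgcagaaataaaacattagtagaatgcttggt
Slc22a30: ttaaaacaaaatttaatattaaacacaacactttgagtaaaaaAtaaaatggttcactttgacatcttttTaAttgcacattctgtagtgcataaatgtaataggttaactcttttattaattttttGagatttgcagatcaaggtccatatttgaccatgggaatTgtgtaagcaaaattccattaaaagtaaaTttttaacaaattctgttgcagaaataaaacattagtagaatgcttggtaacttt
The differing bases sit at the same 6 aligned places in both lines, and the windows are offset by 6 bases.

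**Figure D4:**
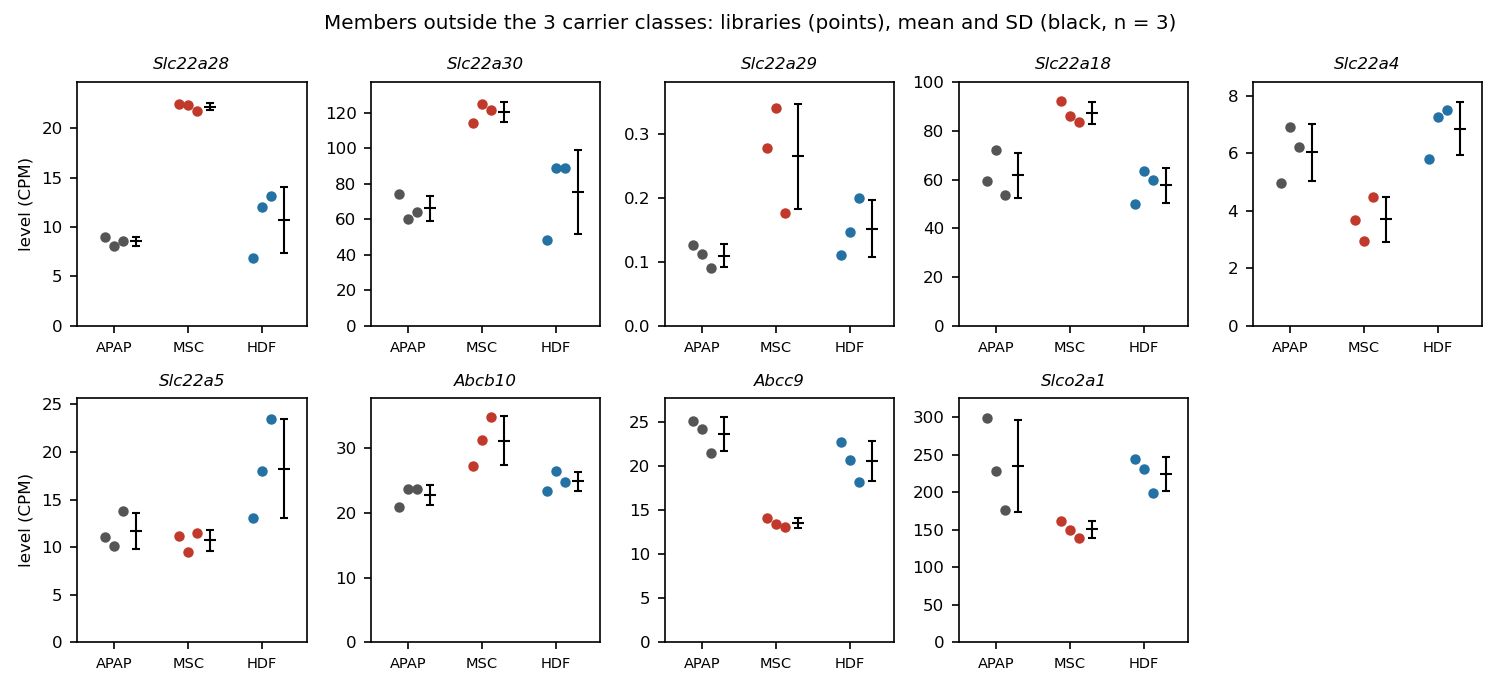
Levels in CPM (axes start at 0 and differ between panels) of 9 members outside the 3 classes in the 9 libraries, with the mean and SD in black (n = 3). The APAP_MSC libraries of Slc22a28 lie from 21.7 to 22.4 CPM, above all others, and those of Abcc9 from 13.1 to 14.1 CPM, below all others.

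Slc22a18, an organic cation carrier in an imprinted gene cluster, and Abcb10, a mitochondrial exporter tied to heme and biliverdin metabolism, were also higher in APAP_MSC than in APAP. Slc22a18 was at 59.3, 72.1 and 53.8 CPM in APAP, 92.5, 85.9 and 83.6 CPM in APAP_MSC and 49.8, 63.7 and 59.7 CPM in APAP_HDF. It was 1.42-fold above APAP (log2 0.50 ± 0.13, adjusted p = 0.0407) and 1.51-fold above APAP_HDF (0.60 ± 0.13, adjusted p = 0.0168). The first was lost without APAP library 1 or 3, any APAP_MSC library, or APAP_HDF library 2 (highest adjusted p 0.134), and the second without APAP_MSC library 1 or 2 (highest 0.0687). Abcb10 had 20.9, 23.7 and 23.8 CPM in APAP, 27.3, 31.4 and 34.9 CPM in APAP_MSC and 23.5, 26.4 and 24.8 CPM in APAP_HDF. Its difference from APAP was 1.37-fold (log2 0.45 ± 0.11, adjusted p = 0.0387), lost in 7 of the 9 fits without 1 library, all but those without APAP_HDF library 1 or 3 (highest adjusted p 0.133). Against APAP_HDF the difference of Abcb10 did not pass (log2 0.32 ± 0.11, adjusted p = 0.0940), though the groups did not overlap. By GENCODE 9.5% of its exon bases overlap a gene on the opposite strand. The intracellular ABC transporters Abcb6, Abcb8 and Abcb9 did not pass in any comparison, and Abcb6 overlaps a same-strand gene over 93.6% of its exon bases, which makes its value uncertain.

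The members lower in APAP_MSC included genes known from cells other than hepatocytes. Abcc9 encodes the sulfonylurea receptor of ATP-sensitive potassium channels in pericytes and smooth muscle. It was at 25.1, 24.2 and 21.4 CPM in APAP, 14.1, 13.4 and 13.1 CPM in APAP_MSC and 22.7, 20.7 and 18.2 CPM in APAP_HDF. It was 1.74-fold lower than in APAP (log2 -0.80 ± 0.11, adjusted p = 0.00565), in each of the 9 fits without 1 library, and 1.52-fold lower than in APAP_HDF (-0.60 ± 0.11, adjusted p = 0.0107), which was lost without APAP_MSC library 2 (adjusted p = 0.0674). Slco2a1, the prostaglandin transporter of endothelium, was at 299, 228 and 177 CPM in APAP, 162, 150 and 139 CPM in APAP_MSC and 244, 231 and 199 CPM in APAP_HDF. It was 1.56-fold lower than in APAP (log2 -0.64 ± 0.17, adjusted p = 0.0454) and missed against APAP_HDF (-0.58 ± 0.17, adjusted p = 0.0545). The first call was lost without APAP library 1 or 2, any APAP_MSC library, or APAP_HDF library 2 or 3 (highest adjusted p 0.176), and the log2 fold change was -0.41 without APAP library 1. It was also lost with upper-quartile scaling, no filter, limma-voom and a fit of only the 2 groups (highest adjusted p 0.0595). The second passed without APAP library 1 or 3 (lowest adjusted p 0.0231), with DESeq2 and in a fit of only the 2 groups. Beside these, the stellate cell markers summed to 198.8 to 271.9 CPM in APAP, 163.7 to 188.0 CPM in APAP_MSC and 160.3 to 223.2 CPM in APAP_HDF, and the sinusoidal endothelial markers to 182.0 to 270.7, 132.6 to 152.8 and 176.2 to 239.7 CPM. Their part in the Abcc9 and Slco2a1 results was not tested.

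Of 4 tested carriers of carnitine and zwitterions, 2 were lower in APAP_MSC than in APAP_HDF, against 3.99% of all genes. Slc22a4, a carrier of ergothioneine, was at 4.98, 6.93 and 6.23 CPM in APAP, 3.67, 2.95 and 4.49 CPM in APAP_MSC and 5.82, 7.28 and 7.50 CPM in APAP_HDF. It was 1.85-fold lower in APAP_MSC than in APAP_HDF (log2 -0.89 ± 0.20, adjusted p = 0.0205), and against APAP it missed (-0.70 ± 0.20, adjusted p = 0.0582) but passed without APAP_HDF library 1 (adjusted p = 0.0425) and with DESeq2 (adjusted p = 0.0130). The first was lost without APAP_MSC library 1 or 2 or APAP_HDF library 2 or 3 (highest adjusted p 0.107). Slc22a5, the plasma membrane carnitine carrier, had 11.1, 10.2 and 13.9 CPM in APAP, 11.2, 9.5 and 11.5 CPM in APAP_MSC and 13.1, 18.1 and 23.5 CPM in APAP_HDF. It was 1.70-fold lower in APAP_MSC than in APAP_HDF (log2 -0.76 ± 0.20, adjusted p = 0.0371), a call lost without any APAP_MSC library or APAP_HDF library 2 or 3 (highest adjusted p 0.171) and with limma-voom (adjusted p = 0.0575). Against APAP, the log2 fold change of Slc22a5 was -0.12 ± 0.20 in APAP_MSC (adjusted p = 0.768) and 0.64 ± 0.20 in APAP_HDF (adjusted p = 0.504). Neither passed, and the APAP and APAP_MSC levels were the closer ones. Slc22a5 shares 27.1% of its 50-base words with other genes, chiefly Slc22a21.

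Levels of different carriers were compared per kilobase of exon, with lengths from GENCODE. In APAP the highest were Slc10a1 at 75.7 ± 6.6, Abcc3 at 72.9 ± 10.5, Abcc2 at 66.1 ± 8.8 and Slco1b2 at 59.1 ± 1.2 CPM per kb (SD, n = 3), and no neighbouring pair in this order lay apart by more than the sum of its SDs. In APAP_MSC the order began with Slc10a1 at 132.6 ± 20, Slco1b2 at 126.3 ± 29.2 and Abcb11 at 80.7 ± 10.2 CPM per kb, so that these uptake carriers and the bile salt pump came before Abcc2 at 65.6 ± 3.9 and Abcc3 at 53.7 ± 7.0. Slco1b2 and Abcb11, Abcb11 and Abcc2, and Abcc2 and Abcc3 lay apart by more than the sum of their SDs, while Slc10a1 and Slco1b2 did not. In APAP_HDF the order began with Abcc2 at 67.5 ± 20.2, Slc10a1 at 56.7 ± 20.6, Abcc3 at 53.8 ± 5.5 and Slco1b2 at 48.0 ± 32.2 CPM per kb, and no neighbouring pair differed beyond its spread.

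**Figure D5:**
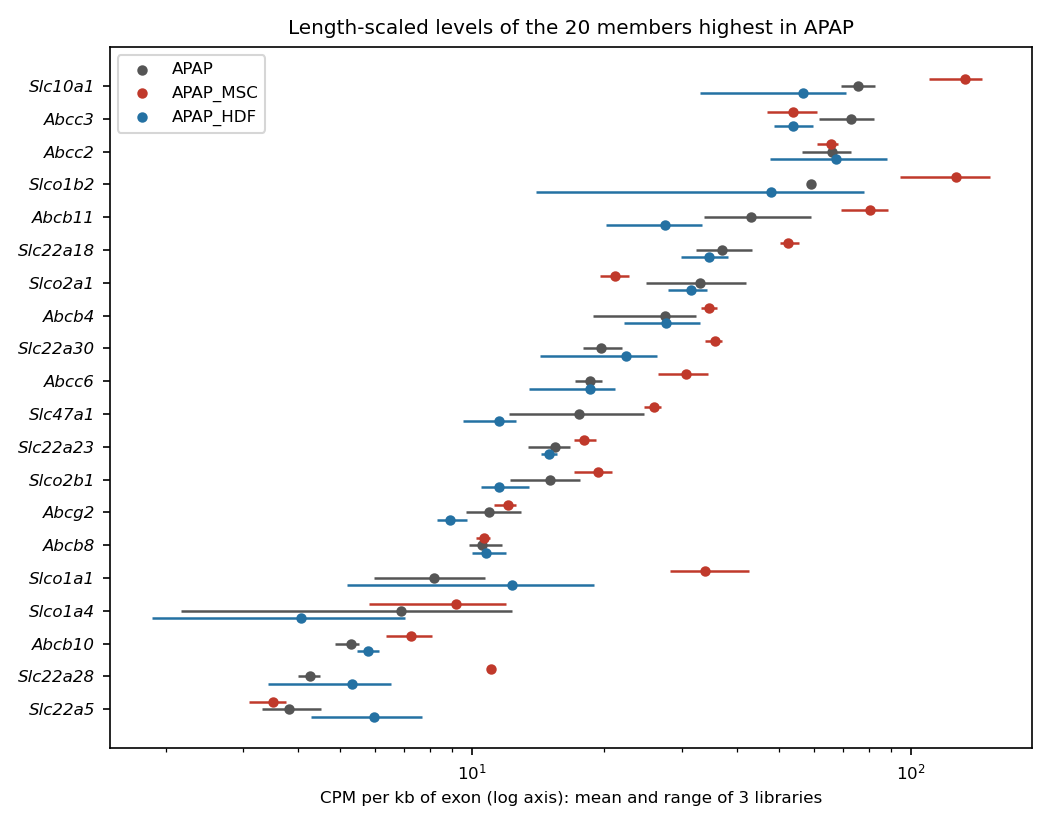
Level per kilobase of exon (log axis) of the 20 members highest in APAP, as the mean (point) and range (line) of 3 libraries per group. Slc10a1 has the highest mean in APAP and APAP_MSC, at 75.7 and 132.6 CPM per kb. In APAP no neighbouring pair in the order Slc10a1, Abcc3, Abcc2 and Slco1b2 lies apart by more than the sum of its SDs. The ends of that order do not overlap, with Slc10a1 from 69.4 to 82.6 and Slco1b2 from 58.2 to 60.5 CPM per kb.

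Genes that govern or assist the carriers were counted from set lists. Of 16 regulators tested, 1 was higher and 0 lower in APAP_MSC against APAP, while over all genes 2.83% were higher and 3.54% lower. In APAP_MSC against APAP_HDF 0 passed, against 4.90% higher and 3.99% lower over all genes. In APAP_HDF against APAP 0 passed, against 0.00%. A count of 0 in a list this short is not far from these shares. The regulator that passed was Cebpa, a factor of hepatocyte identity, at 325 ± 25.6 against 216 ± 23.0 CPM (log2 0.59 ± 0.15, adjusted p = 0.0438). Hnf4a, which drives many of the carriers, stood at 720 ± 44.7, 713 ± 105.9 and 729 ± 55.9 CPM in APAP, APAP_MSC and APAP_HDF. The bile acid receptor Nr1h4 was at 106 ± 16, 116 ± 4.3 and 105 ± 17.1 CPM, and its target Nr0b2, a repressor of Slc10a1, at 20.5 ± 10.6, 28.5 ± 8.8 and 20.1 ± 3.5 CPM, with no call. Of 13 canalicular lipid and anchoring partners, 0 passed against APAP in either group, and 2 were higher in APAP_MSC than in APAP_HDF, against 4.90% of all genes. Those were Abcg5, which with Abcg8 secretes sterols into bile (log2 0.72 ± 0.19, adjusted p = 0.0400), and Pdzk1, a scaffold of apical transporters (0.47 ± 0.12, adjusted p = 0.0339). Of the 2 bile acid conjugation genes, Baat, which joins bile acids to taurine or glycine, was higher in APAP_MSC than in APAP_HDF (0.64 ± 0.14, adjusted p = 0.0163).

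The other members add little. Abcc12 had a log2 fold change of -0.47 ± 0.26 in APAP_MSC against APAP (adjusted p = 0.312) and -0.64 ± 0.26 against APAP_HDF (adjusted p = 0.146). Slco4a1 was near the limit of detection, at 0.09 to 0.47 CPM in APAP. Slc22a26 was kept but not tested, with 0.06 to 0.13 CPM in APAP and 0.19 to 0.21 CPM in APAP_MSC. The 11 members below the count minimum were Slc51a and Slc22a8, Slc22a12, Slc22a13, Slc22a16, Slc22a19, Slc22a20, Slc22a27, Slco1a6, Slco1c1 and Slco4c1, with at most 16 counts in any library.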

How the data were processed

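Poly(A) RNA of whole liver was measured in 9 libraries. The authors deposited raw whole-number counts per gene symbol, per the file headers and values, and a normalized table that was not used here. The tools HISAT2, Subread and DESeq2 and the builds mm39 and GRCm39 are named, unversioned, per the submitters' processing notes. Strand setting and the treatment of reads with several positions are not given in the sources used here.

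From the counts, 17582 genes passed filterByExpr and a quasi-likelihood model (edgeR 4.0.16, R 4.3.3, robust, TMM) took in all 9 libraries and only the group as a factor, p-values being adjusted over all genes (Benjamini-Hochberg, two-sided). DESeq2 1.42.0, limma 3.58.1 (voom), other scalings, no filter, fits of 2 groups and fits without each library were alternatives. Class levels used a prior count of 2. The median chi-square between libraries of a group was 3.71 to 9.66, above sampling noise. The steps were tested on simulated data. GENCODE M21 (GRCm38) gave exon lengths, overlaps and shared 50-base words, and RefSeq (GRCm38.p6) the promoters, matched by symbol. The files use another build, so no counts were placed by coordinates.

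Some genes that the naming rule takes are not reported here and are left out of all counts of members and classes. Members, classes and lists were chosen with earlier results of these data known. Named are 19 set readouts, every other member past the test, and the smallest p of each remaining class. Motif letters, promoter pairs and the older edgeR method were chosen after seeing the data.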

Additional observations from a re-analysis of the deposited data

How the results depend on the processing

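In APAP_MSC against APAP, the number of members called ranged from 2 to 10 higher and from 1 to 5 lower over the fits without 1 library. The lower count was 2 with no filter and 2 with limma-voom. Over all genes the calls ranged from 97 (without APAP_MSC library 2) to 1753 (without APAP_HDF library 1), and were 2050 with DESeq2 against 1121 as reported. In APAP_HDF against APAP, DESeq2 called 1 member lower and 83 genes over all, and the fits without 1 library called 0 to 32 genes. In APAP_MSC against APAP_HDF, 3 to 9 members were higher and 0 to 4 lower without 1 library. Over all genes the calls ranged from 361 to 1793 without 1 library and were 2537 with DESeq2 against 1563 as reported.

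The canalicular median of APAP_HDF against APAP ranged from -0.81 to -0.27 without 1 library and was -0.45 over members with a mean raw count of 100 or more. With that minimum the canalicular median of APAP_MSC against APAP_HDF was 0.57, and the medians that moved by more than 1.5 times are given with the classes. The uptake median of APAP_MSC against APAP_HDF ranged from 0.97 to 1.68 without 1 library. No result that had passed changed its direction under any alternative run.

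Of the 12 calls in APAP_MSC against APAP, 2 held under every alternative, those of Slc22a28 and Abcc9. Of the 12 against APAP_HDF, 3 did, those of Abcb11, Slc22a28 and Slc22a7. The older edgeR method, added after seeing the data, left the counts of members called as they were. No paired analysis was possible because the columns carry no replicate numbers. With 3 libraries per group and no untreated liver, the spread limits what can be called, and low members such as Slc51b rest on few counts. The sample descriptions hold numbers whose meaning is not given, 3246 to 3251 in APAP_MSC, 3840 to 3842 in APAP_HDF and 3138, 3140 and 3846 in APAP. The APAP_MSC numbers stand apart from all others, so anything these numbers track and the MSC group cannot be told apart. They could not be tied to columns, so no value within such a batch can be given.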
